A study of Mus musculus with 8 samples.

Results

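The genes described here are those of the cytosolic ribosomal proteins of the mouse and their paralogs. They were chosen by symbol: every gene whose name begins with Rpl or Rps followed by a number, together with Rpsa and the P-stalk genes Rplp0, Rplp1 and Rplp2. The 10 symbols beginning with Rps6k, which name kinases, were left out. The rule found 90 of 19348 genes in the expression tables. Of these, 77 are canonical members (46 of the large subunit and 31 of the small subunit) and 7 are paralogs (Rpl3l, Rpl7l1, Rpl10l, Rpl22l1, Rpl36al, Rpl39l and Rps27l). A further 5 are retrotransposed or processed copies (Rpl32l, Rpl37rt, Rps27rt, Rpl34-ps1 and Rpl31-ps12). The remaining symbol, Rps19bp1, encodes a protein that binds Rps19 and is not a ribosomal protein itself.

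RNA was sequenced from liver and epididymal white adipose tissue (eWAT) of male C57BL/6 mice at 12 weeks of age after 16 h of fasting on a normal diet. The 8 libraries formed 4 groups of 2: liver and eWAT from mice labelled Crtc1-/- and liver and eWAT from wild-type littermates labelled Crtc1+/+. Crtc1 encodes a coactivator of the transcription factor CREB, and the knockout was a whole-body one made with CRISPR/Cas9 guides to exons 2 and 4. The study described the replicates as biologically independent, and the labels do not say whether liver and eWAT libraries with the same number came from the same mouse.

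Library totals ran from 16560085 to 19721481 estimated counts. Crtc1 itself did not follow the labels throughout. In liver its counts were higher in both Crtc1-/- libraries than in both Crtc1+/+ libraries. In eWAT its count was above both Crtc1+/+ libraries in Crtc1-/- library 1 and below both in Crtc1-/- library 2. Its counts were 228 and 188 in Crtc1+/+ liver against 421 and 308 in Crtc1-/- liver, and 676 and 650 in Crtc1+/+ eWAT against 1065 and 484 in Crtc1-/- eWAT. With counts scaled to a common library size by TMM within eWAT (CPM), Crtc1-/- library 2 lay between the Crtc1+/+ libraries. It stood at 33.6 CPM, against 32.6 and 33.7 CPM in Crtc1+/+ and 58.5 CPM in Crtc1-/- library 1. These values cover the whole gene and do not show whether the targeted exons were present. Every genotype difference below is therefore between libraries as labelled. The tissue markers also departed from the labels. In eWAT, 30 of 30 epididymis markers were lower in both Crtc1-/- libraries than in both Crtc1+/+ libraries, with a summed share of counts of 9.42% and 10.8% in Crtc1+/+ and 0.00513% and 0.0017% in Crtc1-/-. The 16 adipocyte markers were all higher in Crtc1-/- eWAT (5.03% and 2.56%) than in Crtc1+/+ eWAT (0.285% and 0.437%). The 15 hepatocyte markers made up 10.4% of Crtc1-/- eWAT library 2, against 0.0878% to 0.632% in the other eWAT libraries and 19.2% to 23.6% in liver.

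Ribosomal proteins together with ribosomal RNA build the large and the small subunit, the first of which forms peptide bonds while the second decodes the mRNA. Their mRNAs are among the most abundant of most cells and typically begin with a terminal oligopyrimidine (TOP) tract, a C followed by a run of C and T, through which growth signals acting by mTOR and the protein Larp1 control how well they are translated. That control acts on translation, which RNA-seq does not measure. Several ribosomal proteins have paralogs whose use is restricted: Rpl3l in striated muscle, and Rpl10l and Rpl39l in male germ cells.

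The bases around the annotated transcription start are shown for members on which the comparisons below turn, because the TOP tract lies there. Each window holds the 15 bases before the start and the first 15 bases of the transcript, on the strand of the gene, with the longest run of C and T in capitals. The sequences and starts are those of RefSeq on GRCm38.p6.
Rpl28 (chr7:4792950-4792979, + strand): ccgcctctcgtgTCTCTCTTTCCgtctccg
Rps18 (chr17:33955651-33955680, - strand): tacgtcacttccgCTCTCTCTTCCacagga
Rpl38 (chr11:114668565-114668594, + strand): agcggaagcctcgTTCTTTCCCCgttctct
Rps26 (chr10:128626492-128626521, - strand): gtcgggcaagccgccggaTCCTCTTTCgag
Rpl4 (chr9:64173372-64173401, + strand): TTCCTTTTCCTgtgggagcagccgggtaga
Rps6 (chr4:86857353-86857382, - strand): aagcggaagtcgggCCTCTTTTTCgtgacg
Rpl22l1 (chr3:28805493-28805522, + strand): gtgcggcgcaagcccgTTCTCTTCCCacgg
Rpl9 (chr5:65391417-65391446, - strand): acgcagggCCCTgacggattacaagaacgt
Rpl39l (chr16:10170213-10170242, + strand): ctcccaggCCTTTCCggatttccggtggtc
In Rpl28, Rps18, Rpl38 and Rps6 the run spans or adjoins the annotated start, whereas in Rpl4 it ends before it and in Rpl9 the longest run is short.

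RefSeq start windows were at hand for 69 members, 57 of them canonical, and for 15154 genes in all. A run of 8 or more C or T within 20 bases of the start was found in 28 of 57 canonical members (49.1%) and in 18.7% of all genes with a window. A C at the first base followed by at least 4 further C or T was found in 13 of 57 (22.8%) against 2.90% of all genes. Motifs were then searched on both strands from 250 bases before to 50 bases after the start. The motif CTCTTTC, made of C and T alone and therefore overlapping such runs, was in 31.6% of canonical members and 9.01% of all genes. ACTTCCGG, a match to the binding motif of ETS factors, was in 19.3% and 6.51%, and TATAAA was in 10.5% and 11.6%. The palindromic cyclic AMP response element TGACGTCA, to which CREB binds, was in 5 of 57 canonical members (8.77%) and 2.86% of all genes. The 5 members were Rpl13, Rpl18, Rpl26, Rpl27a and Rps9. A match describes the letters only.

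Ribosomal protein mRNA made up a larger share of the eWAT libraries than of the liver libraries. All 90 members together took 2.14% and 1.58% of the counts in Crtc1+/+ liver and 2.30% and 3.22% in Crtc1-/- liver. They took 7.29% and 5.69% in Crtc1+/+ eWAT and 5.35% and 3.70% in Crtc1-/- eWAT. The lowest eWAT share was above the highest liver share, and within each tissue the genotypes did not overlap, Crtc1-/- being above Crtc1+/+ in liver and below it in eWAT. The mean share in liver was 1.86% ± 0.390 (SD, n = 2) for Crtc1+/+ and 2.76% ± 0.647 for Crtc1-/-, a ratio of 1.48. In eWAT it was 6.49% ± 1.13 for Crtc1+/+ and 4.53% ± 1.17 for Crtc1-/-, a ratio of 0.698. With 2 libraries a group a two-sided exact permutation test of these shares cannot give a p below 0.333, so none was run. Counting error was far smaller than these gaps, the 95% Wilson interval of the highest share being 7.27% to 7.30%, and covers counting error only.

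**Figure D1:**
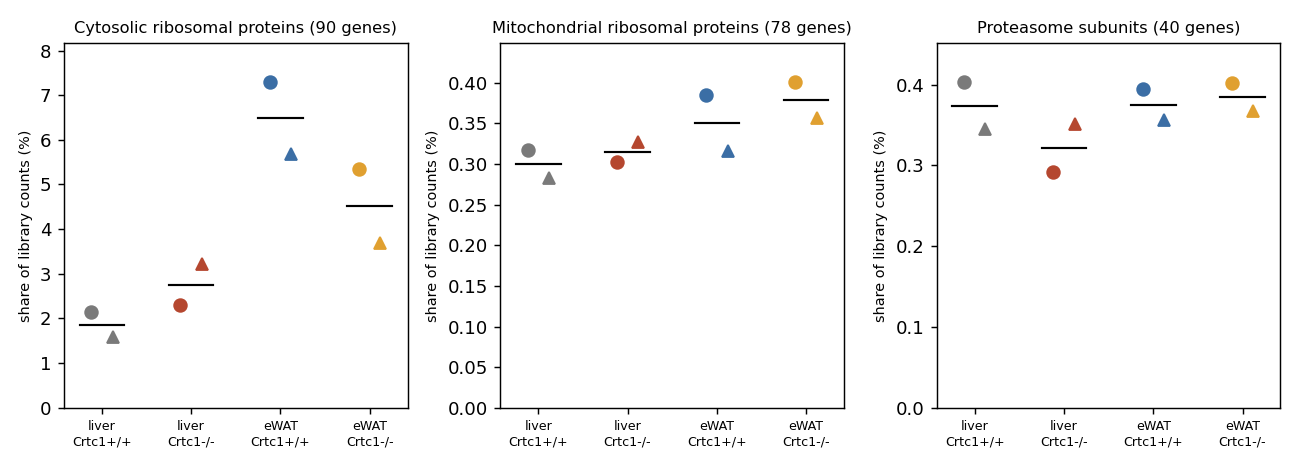
Share of library counts (%) taken by the 90 cytosolic ribosomal protein genes, the 78 mitochondrial ribosomal proteins and the 40 proteasome subunits in each of the 8 libraries (circle, library 1 of a group; triangle, library 2; line, mean of both), each panel with its own axis from 0. The cytosolic set runs from 1.58% to 7.29% with every eWAT library above every liver library, while the other sets stay between 0.282% and 0.403%.

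The large and small subunits moved largely together in these shares. Large-subunit members took 1.28%, 0.969%, 1.37% and 1.92% of the counts in the liver libraries, given as Crtc1+/+ 1 and 2 and then Crtc1-/- 1 and 2. Small-subunit members took 0.812%, 0.584%, 0.891% and 1.25% in the same order. In eWAT the large subunit took 4.52%, 3.58%, 3.24% and 2.24% and the small subunit 2.72%, 2.06%, 2.07% and 1.42%. The genotypes thus overlapped in eWAT for the small subunit, though not for the large one. For comparison, the 78 mitochondrial ribosomal proteins stayed between 0.282% and 0.400% and the 40 proteasome subunits between 0.292% and 0.403% in all 8 libraries.

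Replicates of 1 group differed in this gene family as a block, and many other genes moved with it. On a scale of counts per library total, 75 of 77 canonical members were lower in Crtc1+/+ liver library 2 than in library 1, with a median log2 difference of -0.44. In Crtc1-/- liver 72 of 77 were higher in library 2, with a median of 0.54. In eWAT, 73 were lower in Crtc1+/+ library 2 (median -0.40) and 77 were lower in Crtc1-/- library 2 (median -0.56). Among other genes with transcripts of at most 500 bases, as implied by count and FPKM, the medians were -0.52 and -0.55 in eWAT. Of these genes 10.8% and 25% were above 0. In Crtc1+/+ and Crtc1-/- liver their medians were -0.29 and 0.30. For other genes over 2000 bases the median was still -0.42 in Crtc1-/- eWAT. The median difference of the canonical members between replicates was therefore about as large as the genotype difference in liver given below. The members thus do not count as independent observations of a genotype.

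Per length of transcript, in FPKM, the canonical members covered a wide range whose order was alike in both tissues. Their median over members was 471, 338, 507 and 705 FPKM in the liver libraries and 1457, 1114, 1194 and 817 FPKM in the eWAT libraries. The highest mean in liver was 101 times the lowest, and in eWAT 120 times. Over the 77 members the mean levels of liver and eWAT had r = 0.96 on the log2 scale and rho = 0.89, points that share gene length and the reads common to related sequences.

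In liver the members highest in mean FPKM were Rps27 (1367), Rps2 (1366), Rpl10 (1346), Rps26 (1342) and Rpl28 (1207). In each genotype the first 4 differed by less than the larger SD of their replicates, so their order is not resolved. In eWAT they were Rps26 (4589), Rps27 (4349), Rpl41 (4139), Rpl10 (3028) and Rps15 (2384). Rps26, a small-subunit protein at the mRNA exit channel, stood at 7524 and 7024 FPKM in Crtc1+/+ eWAT but at 2191 and 1618 FPKM in Crtc1-/- eWAT, so its rank in eWAT rests on the Crtc1+/+ libraries. Lowest in liver were Rpl5 (119), Rpl22 (38.5), Rps20 (34.9), Rps15a (21.3) and Rps6 (13.6), and in eWAT Rps3 (310), Rpl22 (147), Rps20 (91.7), Rps15a (66.4) and Rps6 (38.3).

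Some of the lowest levels were of members with long implied transcripts or with shared sequence. For Rps15a, Rps20 and Rpl22 the ratio of count to FPKM implied transcripts of 4989, 3298 and 2055 bases, whereas the median over canonical members was 578. Of their 50-base windows 6.04%, 7.44% and 5.19% were found in transcripts of other genes. Rps6, the phosphorylated small-subunit protein often used as a readout of growth signalling, had counts of 299.57 and 341.23 in Crtc1+/+ liver that were not whole numbers. Of its windows 84.6% were shared in this way, the most with Rps6-ps4, but so were 96.3% of those of Rpl10, which was among the highest members. Over canonical members the median share of such windows was 57.4%, and 47 of 77 members were above 50%. Levels of members with shared windows are therefore uncertain against those of other members.

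In liver, ribosomal protein mRNAs were on the whole higher in the libraries labelled Crtc1-/-, by a median log2 fold change of 0.54, and no single member passed the test. Of 84 members tested, 77 were higher and 7 lower (50.3% and 49.7% of all 11707 genes tested), while the median over all genes was 0.00. By edgeR's quasi-likelihood test, with p-values adjusted by Benjamini-Hochberg across the whole table, 0 members were called at an adjusted p under 0.05, the lowest being 0.134. Of all genes 0.0854% were called (0.0598% higher and 0.0256% lower). At an unadjusted p under 0.05 there were 25 members higher and 0 lower (9.73% and 7.6% of all genes). DESeq2 called 2 members, Rpl22l1 and Rpl36, and limma on FPKM called 0. The shares of all genes called by these tools are not given here. In 59 members both Crtc1-/- libraries were above both Crtc1+/+ libraries and in 3 both were below (25.8% and 26.4% of all genes).

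The difference was found in both subunits. All 31 small-subunit members were higher, with a median of 0.57, and 40 of 46 large-subunit members were. The canonical members ranged from -0.27 to 1.29. The median was 0.60 with scaling by library size and 0.34 with limma after quantile normalization. Scaling on the members themselves, which sets their own level to be equal, left 0.02 while the median of all genes went to -0.50. Leaving out 1 library at a time, which left 1 library in a group, gave medians from 0.26 to 0.79.

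The member with the largest positive difference, which did not pass the test, was the paralog Rpl22l1 (gene 68028, chromosome 3, 28805508 to 28807424). It encodes a close relative of Rpl22, the RNA-binding large-subunit protein. It stood at 2.88 and 3.83 CPM (counts scaled to a common library size by TMM within liver) in Crtc1+/+ and at 8.07 and 9.05 in Crtc1-/-. Both Crtc1-/- libraries were thus above both Crtc1+/+ libraries, by a log2 fold change of 1.35 (SE 0.32, edgeR adjusted p = 0.134, and 0.0366 by DESeq2). Of its 50-base windows 52.7% were shared with other transcripts, though none with Rpl22.

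Rpl36, a large-subunit protein (gene 54217, chromosome 17, 56610094 to 56614246), stood at 126 and 88.3 CPM in Crtc1+/+ liver and at 183 and 338 CPM in Crtc1-/- liver. The groups did not overlap, but library 2 of Crtc1-/- was well above library 1. Its log2 fold change was 1.29 (SE 0.34, edgeR adjusted p = 0.159, and 0.00974 by DESeq2). Rpl28 had the same shape, with 344 and 230 CPM against 412 and 782 CPM, a log2 fold change of 1.06 (SE 0.35, edgeR adjusted p = 0.207). Rpl38, known for its part in the translation of Hox mRNAs, stood at 184 and 123 CPM against 209 and 395 CPM. The small-subunit members Rps18 (251 and 176 against 313 and 497 CPM) and Rps29 (108 and 76.0 against 131 and 210 CPM) followed, with log2 fold changes of 0.93 and 0.89. In all 4 of these the Crtc1-/- libraries were above both Crtc1+/+ libraries, and library 2 of Crtc1-/- was the highest.

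A few members stood apart from the rest in liver. Rpl9 stood at 184 and 144 CPM in Crtc1+/+ and 144 and 127 CPM in Crtc1-/-, a log2 fold change of -0.27. Rpl4, which lines the exit tunnel, stood at 272 and 283 against 225 and 241 CPM (-0.25). Rpl3, at the peptidyl transferase centre, stood at 267 and 245 against 226 and 226 CPM (-0.18). Rpl4 and Rpl3 were below in both Crtc1-/- libraries, Rpl9 overlapped, and none of the 3 passed the test. Rpl41 (-0.05) and the P-stalk protein Rplp0 (-0.03) were close to 0, and both turned to the other sign with scaling by library size. Rpl37rt, close to the filter on low counts, had 6.59, 9.87, 10.75 and 16.28 counts.

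**Figure D2:**
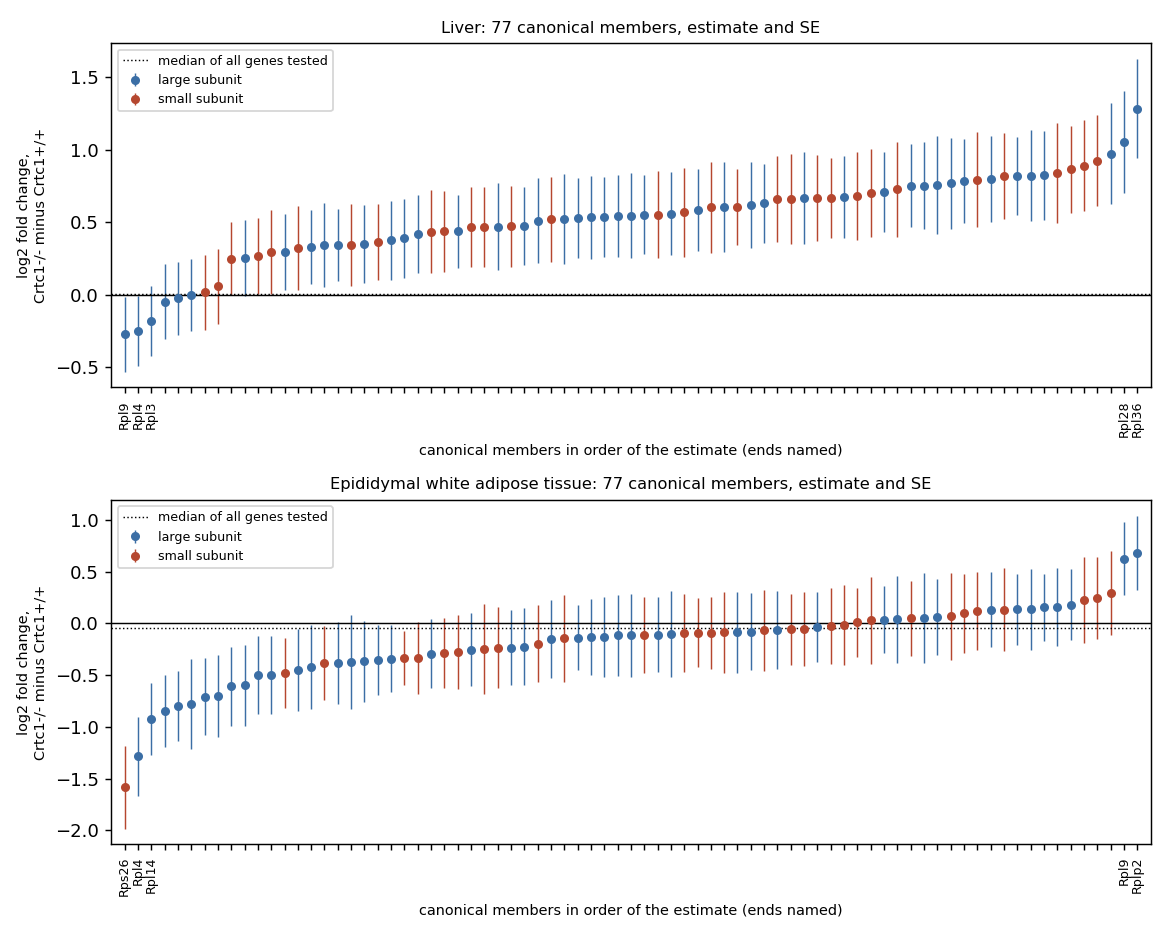
Log2 fold change, Crtc1-/- minus Crtc1+/+ as labelled, of the 77 canonical members in liver (top) and eWAT (bottom), ordered by size, with the members at the ends named, and coloured by subunit, with bars of 1 SE (TMM scaling) and a dotted line at the median of all genes tested. Liver runs from -0.27 to 1.29 and eWAT from -1.58 to 0.68, where the median of the tested members turns positive without Crtc1+/+ library 1 (0.07).

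Up to 2000 bases the median liver difference fell with transcript length, for ribosomal proteins and for other genes. The length implied by count and FPKM was at most 500 bases for 33 canonical members and at most 1000 for 65 of 77, while the median of the other tested genes was 2610. Among transcripts of at most 500 bases the median log2 fold change was 0.67 over the canonical members and 0.62 over 206 other genes, 91.7% of which were above 0. From 500 to 1000 bases it was 0.49 over 32 canonical members and 0.24 over 887 other genes. From 1000 to 2000 bases it was 0.06 over 9 canonical members and -0.02 over 3050 other genes. Over 2000 bases it was 0.44 over 3 canonical members and -0.03 over 7480 other genes. Over the 77 canonical members r between log2 length and log2 fold change was -0.47 and rho -0.54, members that share their libraries. Over 11623 other genes of all lengths r was only -0.06 and rho -0.03. The replicates of Crtc1-/- liver differed in the same way up to 2000 bases. Library 2 minus library 1 had medians of 0.58 (33 canonical) and 0.30 (206 others) at up to 500 bases. From 1000 to 2000 bases the medians were 0.14 and -0.06, and over 2000 bases 0.35 and 0.08. Over all lengths r was -0.41 for canonical members and 0.13 for other genes. The part of transcript length in the genotype difference was not tested.

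**Figure D3:**
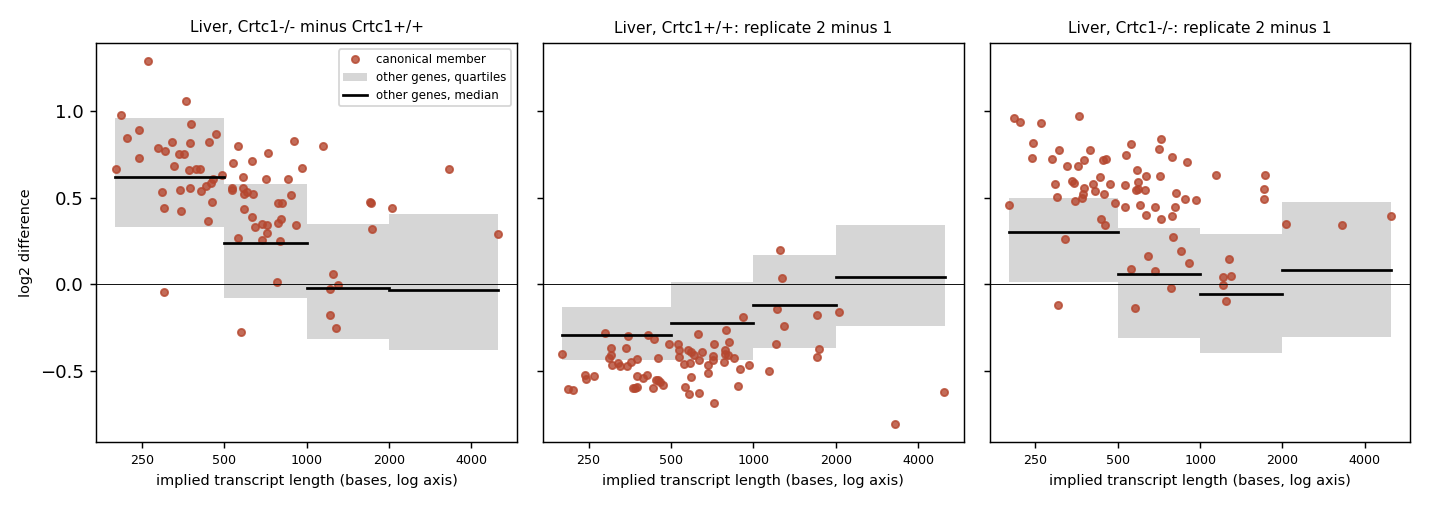
Log2 difference against the transcript length implied by count and FPKM (log axis, bases) in liver, for Crtc1-/- minus Crtc1+/+ as labelled (left) and for replicate 2 minus replicate 1 of Crtc1+/+ (middle) and of Crtc1-/- (right). Points are the 77 canonical members, and black lines and grey boxes the median and quartiles of other genes in each length range; at up to 500 bases the medians of members and other genes are 0.67 and 0.62 on the left, -0.47 and -0.29 in the middle and 0.58 and 0.30 on the right.

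Markers of other cell types also moved between the liver groups, at low levels. Lymphocyte markers were higher in both Crtc1-/- libraries for 9 of 10 genes, with summed shares of 0.000426% and 0.00025% against 0.00113% and 0.000694% and 0 or 1 marker at 0 in each library. Epididymis markers were higher for 20 of 30, with 14 and 13 markers at 0 in Crtc1+/+ and 0 and 8 in Crtc1-/-, and shares of 0.000299% and 0.000307% against 0.00983% and 0.00141%. Hepatocyte markers moved either way in equal number, 5 of 15 up and 5 down. The part of these cells in the ribosomal protein difference was not tested. In bulk tissue fewer cells of a type and less RNA per cell cannot be told apart.

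The medians of the larger related gene groups in liver lay below 0. Of the ribosomal proteins with other symbols, Fau, made as a fusion with a ubiquitin-like protein, had a log2 fold change of 0.95 and the scaffold protein Rack1 0.26, with neither called. Of 41 translation factors 18 were higher and 23 lower, with a median of -0.05. Of 56 ribosome biogenesis genes 20 were higher and 36 lower (-0.10), and of 78 mitochondrial ribosomal proteins 37 and 41 (-0.01). Of 37 proteasome subunits 6 were higher and 31 lower (-0.35), and of 16 regulators of TOP mRNAs 7 and 9 (-0.08). By edgeR's quasi-likelihood test with Benjamini-Hochberg adjustment 0 genes of these lists were called. At an unadjusted p under 0.05, 5 translation factors were higher and 4 lower, 3 and 6 biogenesis genes, 2 and 5 mitochondrial ribosomal proteins, 0 and 8 proteasome subunits, and 1 and 2 TOP regulators.

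Members were then set side by side by these start sequences. In liver the 28 canonical members with a run of 8 or more C or T had a median log2 fold change of 0.54 and the 29 without one also 0.54. The 5 members with TGACGTCA had a median of 0.55, ranging from 0.27 to 0.67, and the 52 without it 0.54. In eWAT the medians were -0.12 with and -0.13 without the run, and -0.09 with and -0.12 without TGACGTCA. The 11 members with ACTTCCGG had a median of 0.67 in liver against 0.52 for the 46 without it, and -0.25 against -0.09 in eWAT. These are descriptions of 57 members and were not tested.

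In eWAT most ribosomal protein mRNAs differed little between the libraries as labelled, and 1 member fell. Of 88 members tested 27 were higher and 61 lower in Crtc1-/- (51.5% of all 15391 genes were lower), with a median log2 fold change of -0.12 beside -0.05 over all genes. By edgeR's quasi-likelihood test with Benjamini-Hochberg adjustment 1 member was called, Rpl3l, which fell (12.2% of all genes were called, 6.65% as higher and 5.53% as lower). At an unadjusted p under 0.05, 1 member was higher and 4 lower (16.2% and 17.1% of all genes). Non-overlapping groups were found in 5 members higher and 28 lower (31.3% and 35.4%). The median was -0.42 with scaling by library size, where that of all genes was -0.35, and -0.36 with limma. It was 0.07 without Crtc1+/+ library 1, so its sign depended on that library. Scaling on the members gave 0.10, but this sets their own level to be equal and cannot inform on the sign.

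Rpl3l (gene 66211, chromosome 17, 24727826 to 24736143), the striated-muscle paralog of Rpl3, had 411 and 462 counts in Crtc1+/+ eWAT and 11 and 19 in Crtc1-/- eWAT. In CPM, scaled by TMM within eWAT, these were 19.8 and 24.0 against 0.605 and 1.32. Both Crtc1+/+ libraries were many times above both Crtc1-/- libraries, with a log2 fold change of -4.51 (SE 0.57, edgeR adjusted p = 0.0201). None of its 50-base windows were found in another gene's transcript. With the replicate number as a block Rpl3l was not called, nor was any other gene. The call was lost when either Crtc1+/+ library was left out, which left 0 members and 0 of all genes called. Skeletal muscle markers did not move with it: their summed share was 0.0753% and 0.0463% in Crtc1+/+ and 0.108% and 0.0912% in Crtc1-/- eWAT, with 1 of 12 markers higher and 1 lower without overlap and none at 0. The epididymis markers given above did move with it, 30 of 30, from 9.42% and 10.8% to 0.00513% and 0.0017%, with 8 markers at 0 in each Crtc1-/- library, and their part was not tested.

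Rps26 had the largest change of any canonical member in eWAT. It stood at 1998 and 1892 CPM in Crtc1+/+ and at 675 and 625 CPM in Crtc1-/-, with replicates close together and groups far apart. The log2 fold change of -1.58 (SE 0.40) had an edgeR adjusted p of 0.0655, and it was called by DESeq2 (adjusted p = 5.07e-09), by limma on log2(FPKM + 1) (0.0311), without the filter on low counts (0.0464) and without the marker genes (0.0434). Rpl4 stood at 977 and 1276 CPM against 486 and 440 CPM, a log2 fold change of -1.28 (SE 0.38, edgeR adjusted p = 0.0911). Neither shared most of its windows with other genes, at 37.8% and 16.5%. Rpl14 (805 and 708 against 433 and 365 CPM), Rpl23 (523 and 549 against 343 and 251 CPM) and Rpl5 (583 and 639 against 388 and 317 CPM) had log2 fold changes of -0.92, -0.85 and -0.79. In each of these 5 members both Crtc1-/- libraries were below both Crtc1+/+ libraries, and none passed edgeR's test. DESeq2 called 7 members, these 5 with Rpl3l and Rpl10, and the share of all genes it called is not given here.

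Some members went the other way in eWAT. Rplp2, a P-stalk protein that recruits elongation factors, stood at 486 and 362 CPM in Crtc1+/+ and at 664 and 698 CPM in Crtc1-/-, a log2 fold change of 0.68. Rpl9 stood at 476 and 458 against 813 and 629 CPM (0.63). In both, the Crtc1-/- libraries were above both Crtc1+/+ libraries without passing the test. Both shared most of their windows with other transcripts, 65.1% and 88.5%. Rps19 (0.25) and Rps15 (0.23) were also above 0, overlapped between groups and turned negative with scaling by library size. The mRNAs of 2 paralogs were also higher in both Crtc1-/- libraries: Rps27l stood at 84.3 and 66.2 against 98.7 and 167 CPM, and Rpl7l1 at 59.3 and 56.4 against 88.2 and 94.8 CPM. The log2 fold changes were 0.82 and 0.66, the latter with an edgeR adjusted p of 0.146. The 167 CPM of Rps27l was that of Crtc1-/- library 2, in which hepatocyte markers made up 10.4% of counts. The part of liver RNA in this value was not tested.

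**Figure D4:**
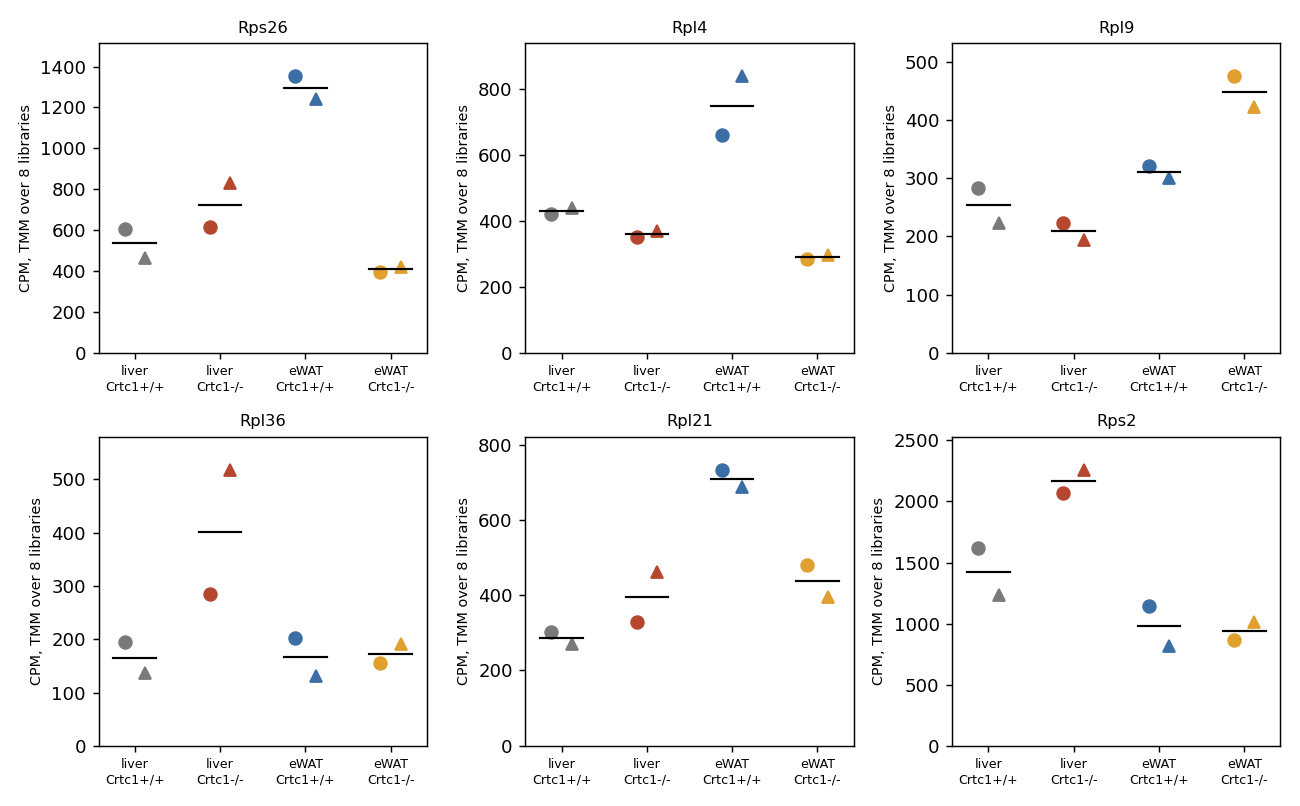
CPM, scaled by TMM over all 8 libraries, of Rps26, Rpl4, Rpl9, Rpl36, Rpl21 and Rps2 in each library (circle, library 1 of a group; triangle, library 2; line, mean of both), each panel with its own axis from 0. Rps26 is at 1352 and 1243 in Crtc1+/+ eWAT and at 395 and 421 in Crtc1-/- eWAT, and Rpl36 is highest in Crtc1-/- liver library 2, at 518.

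Of the related groups in eWAT, a few genes passed edgeR's test, beside 12.2% of all genes (6.65% as higher and 5.53% as lower). Npm1, the nucleolar protein nucleophosmin, fell from 129 and 206 CPM to 36.7 and 40.8 CPM, a log2 fold change of -2.11 (edgeR adjusted p = 0.0289), as the 1 of 56 ribosome biogenesis genes called. Eif1ax, an initiation factor of start-codon scanning, fell from 63.8 and 91.8 CPM to 28.97 and 23.26 CPM (-1.57, edgeR adjusted p = 0.0452), as the 1 of 41 translation factors called. Eif4ebp1, the cap-binding repressor that mTOR inactivates, rose from 61.7 and 58.9 CPM to 607 and 494 CPM (3.19, edgeR adjusted p = 0.0170), as the 1 of 16 TOP regulators called. Of 78 mitochondrial ribosomal proteins 70 were higher and 8 lower (48.5% and 51.5% of all genes), with a median of 0.47 and 1 called lower. Of 39 proteasome subunits 25 were higher and 14 lower, with 1 called in each direction. Fau and Rack1 had log2 fold changes of 0.21 and -0.13. The calls of Npm1, Eif1ax and Eif4ebp1 were also lost without either Crtc1+/+ library. These values stand beside the epididymis and adipocyte markers given above, whose part was not tested.

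Between tissues, the reading of the ribosomal proteins depended on the scaling. In Crtc1+/+ libraries the median log2 difference of eWAT minus liver was 0.44 over 88 members with TMM, while that of all 15587 genes was 0.61. With scaling by library size they were 1.84 and 2.003. Relative to the median of all genes the members were thus at -0.17 with both. With limma after quantile normalization they were at 1.39 and all genes at -0.06. The TMM factors were 0.627 to 0.676 in liver and 1.21 to 1.68 in eWAT. Calls went from 15 with TMM to 83 of 88 with scaling by library size and to 81 with limma on log2(FPKM + 1). Of all genes 54.9% were called with TMM, and the shares under the other settings are not given here. These counts are therefore not a result about the members.

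With TMM, 12 members were called higher in Crtc1+/+ eWAT and 3 lower by edgeR's test (35% and 19.8% of all genes, 54.9% in either direction). Of the 88, 80 were above 0 and 8 below (62.8% and 37.2%), and at an unadjusted p under 0.05 there were 22 above and 3 below (39.9% and 21.9%). Non-overlapping groups were found in 49 members higher and 5 lower (52.5% and 30.1%). In CPM scaled by TMM over all 8 libraries Rpl21, a large-subunit protein, rose from 301 and 271 in liver to 733 and 686 CPM in eWAT, a log2 difference of 1.31 (SE 0.36, edgeR adjusted p = 0.0201). Rps26 rose from 607 and 465 CPM to 1352 and 1243 CPM (1.28), and Rpl12, part of the base of the P stalk, from 278 and 223 CPM to 659 and 495 CPM (1.202). The other canonical members called higher were Rpl39 (1.17), Rps12 (1.07), Rpl17 (1.03), Rpl22 (0.999) and Rpl23 (0.92). No canonical member was called lower with TMM. Lowest stood Rps2, at 1622 and 1231 CPM in liver and 1142 and 816 CPM in eWAT, a log2 difference of -0.54 that became 0.86 with scaling by library size. Rpl7a (-0.28), Rpl8 (-0.14) and Rpl27 (-0.09) also turned positive there, and Rps18 stood at 0.00. Leaving out 1 library gave 2 to 17 calls, with 2 without Crtc1+/+ liver library 1, 4 without liver library 2, 4 without eWAT library 1 and 5 without eWAT library 2. The epididymis markers made up 9.42% and 10.8% of these eWAT libraries, and their part in the difference was not tested.

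In the Crtc1-/- libraries the members were lower relative to other genes. With TMM the median log2 difference of eWAT minus liver was -0.36 beside 0.20 over all genes, and with scaling by library size 0.78 beside 1.33, which places the members at -0.56 and -0.55 relative to the median of all genes. With limma it was 0.62 beside -0.06, so the sign relative to other genes turned there. Of 88 members 21 were above 0 and 67 below (55.3% and 44.2% of all genes). By edgeR's test 1 member was called higher and 3 lower (18.9% and 8.88% of all genes). Rpl9 rose from 223 and 195 CPM in liver to 476 and 424 CPM in eWAT (1.11, edgeR adjusted p = 0.0408). Rps27l fell from 220 and 297 CPM to 57.8 and 112 CPM (-1.60, edgeR adjusted p = 0.0294), Rpl36al from 218 and 227 to 81.1 and 123 CPM (-1.12, edgeR adjusted p = 0.0384) and Rpl7l1 from 95.4 and 106 to 51.6 and 63.9 CPM (-0.80, edgeR adjusted p = 0.0460). Of the canonical members Rpl36 (-1.21), Rps2 (-1.20), Rps18 (-1.19), Rpl28 (-1.14) and Rpl27 (-0.83) stood lowest, below both liver libraries without passing the test. With scaling by library size Rpl7l1 became 0.30 and Rpl27 0.29, and with limma on log2(FPKM + 1) Rpl28 became 0.003. Leaving out Crtc1-/- eWAT library 2, which held the hepatocyte markers, gave 4 calls and a median of -0.33. Leaving out any other library gave 0 or 1: 1 without either Crtc1+/+ liver library and 0 without either Crtc1-/- liver library, either Crtc1+/+ eWAT library or Crtc1-/- eWAT library 1.

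Genes of related groups were compared between the tissues with TMM. In Crtc1+/+ libraries 59 of 78 mitochondrial ribosomal proteins and 29 of 39 proteasome subunits were called lower in eWAT (19.8% of all genes), with medians of -1.11 and -1.31. As a share of library counts these groups were not lower in eWAT: the mitochondrial set had means of 0.350% in eWAT and 0.300% in liver, and the proteasome 0.375% and 0.374%. Of 56 ribosome biogenesis genes 19 were called lower and 3 higher (19.8% and 35% of all genes). Among them Rcl1, a factor of 18S rRNA processing, was at -3.56, Bysl at -1.99 and Nop2 at -1.92, while Npm1 was at 1.65. In Crtc1-/- libraries 39 mitochondrial ribosomal proteins, 12 proteasome subunits and 13 biogenesis genes were called lower (8.88% of all genes). Their shares there were also not lower in eWAT, with means of 0.378% against 0.314% for the mitochondrial set, 0.384% against 0.322% for the proteasome and 0.163% against 0.124% for biogenesis genes. Of the 16 TOP regulators 4 were called higher in Crtc1-/- eWAT and 1 lower (18.9% and 8.88% of all genes). Those called higher included the mTORC1 inhibitors Ddit4 (3.06) and Sesn2 (2.86), and the 1 called lower was Larp1 (-1.59).

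The genotype difference itself was compared between the tissues as an interaction, eWAT minus liver. Of 88 members 5 were above 0 and 83 below (44.4% and 55.6% of all genes), with a median of -0.82 beside -0.21 over all genes. By edgeR's quasi-likelihood test with Benjamini-Hochberg adjustment 0 members were called (6.94% of all genes, 3.78% above and 3.16% below 0). At an unadjusted p under 0.05, 1 was above and 12 below 0 (13.1% and 13.8%). DESeq2 called 3 (Rpl3l, Rps26 and Rpl23) and limma on log2(FPKM + 1) called 6, with the shares of all genes not given here. Leaving out 1 library gave medians from -1.06 to -0.56, and 1 call (from 0) without either Crtc1-/- eWAT library. Among the paralogs Rpl39l stood at -6.06 (edgeR adjusted p = 0.426), a size that is not resolved at or near 0 counts in liver. Rpl3l stood at -5.42 (edgeR adjusted p = 0.0597). Rps26 was the lowest canonical member (-2.10, edgeR adjusted p = 0.0646). Rpl14 was at -1.48, Rpl26 at -1.46, Rpl12 at -1.43 and the paralog Rpl22l1 at -1.36, while Rpl7l1 (0.89) and Rpl9 (0.81) were above 0. Scaling on the members left a median of 0.01, with that of all genes at 0.57. Relative to the median of all genes the members were at -0.60 with TMM and at -0.56 with that scaling.

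The paralogs were compared with the canonical gene of the same name in FPKM, and no 50-base window was shared within a pair. Rps27l, induced by p53 in other settings, stood at 32.0%, 31.6%, 26.0% and 27.6% of Rps27 in the liver libraries and at 4.40%, 4.55%, 5.47% and 14.1% in the eWAT libraries. The ratio was lower in every eWAT library than in any liver library. The highest eWAT ratio was that of Crtc1-/- library 2, in which hepatocyte markers made up 10.4% of counts. The part of liver RNA in this ratio was not tested. The FPKM of Rps27l itself was 387, 295, 381 and 513 in liver and 256, 198, 259 and 351 in eWAT. In Crtc1+/+ libraries Rps27l was called lower in eWAT with TMM (-1.98, edgeR adjusted p = 0.00812).

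Rpl36al, a paralog of Rpl36a, was the one whose level was near that of its parent: 137%, 143%, 112% and 80.9% in liver and 51.0%, 67.2%, 42.2% and 73.9% in eWAT. It was above its parent in 3 of 4 liver libraries and below it in all 4 eWAT libraries. Rpl7l1, a nucleolar relative of Rpl7, stood at 5.26% to 9.66% of Rpl7 in liver and 1.88% to 4.07% in eWAT. It was called lower in Crtc1+/+ eWAT (-1.69, edgeR adjusted p = 0.00227), and Rps19bp1 was as well (-0.78, edgeR adjusted p = 0.0491, and 0.62 with scaling by library size).

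Rpl22l1 stood at 22.7%, 34.5%, 56.0% and 48.8% of Rpl22 in the liver libraries, both Crtc1-/- libraries being above both Crtc1+/+ libraries. In eWAT it stood at 36.9%, 33.6%, 45.2% and 36.0%, where the groups overlapped. Its FPKM was 7.68, 10.47, 22.26 and 24.48 in liver and 63.13, 56.02, 68.23 and 35.48 in eWAT. In Crtc1+/+ libraries it was called higher in eWAT (1.33, edgeR adjusted p = 0.00858), and in Crtc1-/- libraries the log2 difference was -0.03.

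Rpl3l stood at 1.77% and 2.18% of Rpl3 in Crtc1+/+ eWAT and at 0.0982% and 0.216% in Crtc1-/- eWAT. In liver it stood at 0.632%, 0.0405%, 0.693% and 0.720%, with counts of 33, 2, 30 and 29. The low library, Crtc1+/+ 2, was also the one lowest in skeletal muscle markers (0.00122% against 0.0755%, 0.0959% and 0.0694%, with none of 12 at 0), and the liver log2 fold change of 0.85 was -0.06 without it and 3.86 without Crtc1+/+ library 1.

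The germ-cell paralogs were seen in eWAT and hardly in liver. Rpl39l had 0, 0, 1 and 0 counts in liver and 249, 29, 29 and 2 counts in eWAT. In Crtc1+/+ it was at least 18.9-fold higher in eWAT than liver at a floor of 3 counts per library, and at least 4.096-fold with library 2 alone. Rpl10l, which replaces the X-linked Rpl10 during male meiosis, had 137, 6, 11 and 2 counts in eWAT and an FPKM of 0 in liver. Its tissue difference in Crtc1+/+ had an edgeR adjusted p of 0.0503 and rested on library 1, at 4.46 CPM: library 2, at 0.204 CPM, was under the level of 3 counts per liver library, 0.241 CPM. Its genotype difference in eWAT, a log2 fold change of -3.17, became 0.23 without Crtc1+/+ library 1. The 17 male germ cell markers moved along: their summed share was 0.199% and 0.092% in Crtc1+/+ eWAT and 0.0158% and 0.00192% in Crtc1-/- eWAT, 13 of 17 being lower without overlap, and 8 to 14 of 17 were at 0 in the liver libraries. Their part in these counts was not tested.

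**Figure D5:**
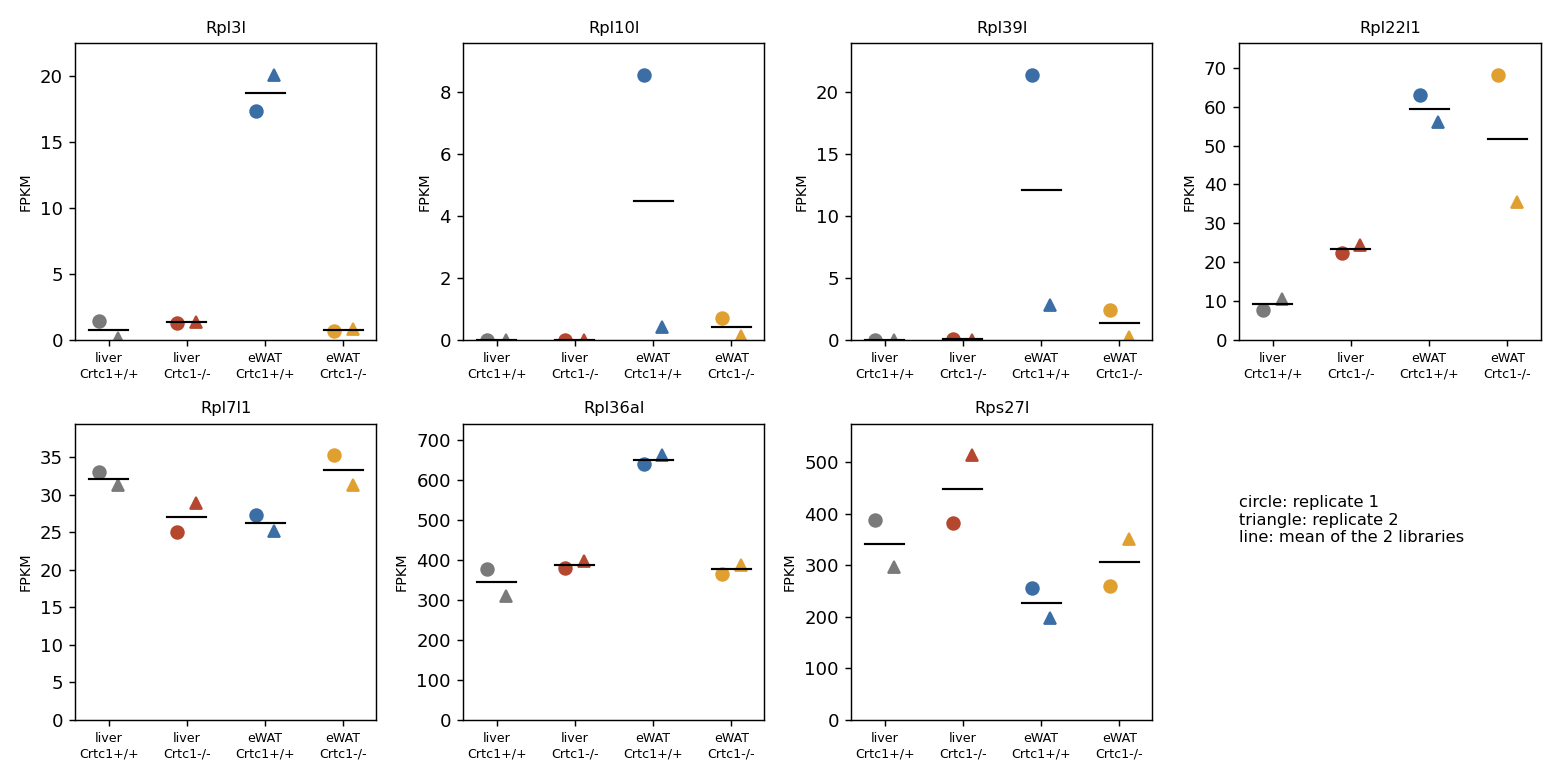
FPKM of the 7 paralogs in each of the 8 libraries (circle, library 1 of a group; triangle, library 2; line, mean of both), each panel with its own axis from 0. Rpl3l is at 17.3 and 20.04 in Crtc1+/+ eWAT and at most 1.37 elsewhere, and the Crtc1+/+ eWAT means of Rpl10l and Rpl39l rest on library 1.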

How the data were processed

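The authors deposited 1 table of estimated counts per gene and 1 of FPKM values for the 8 libraries. RNA was extracted with Trizol, and sequenced by BGI. The submitters' processing notes name HISAT, Bowtie2 and the build GRCm38.p6, and the counting tool and annotation are not given in the sources used here. The deposited estimated counts were not normalized (5.44% to 9.98% of values per library were not whole), and were rounded here. The deposited FPKM values were scaled by the authors for gene length and depth.

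Counts were tested with edgeR 4.0.16 (R 4.3.3) by its quasi-likelihood F test after filterByExpr and TMM, over all genes, with Benjamini-Hochberg adjustment and a threshold of 0.05. Genotypes were compared within each tissue (4 libraries), and tissues and the interaction in 1 fit of 8 libraries. The study itself used limma after quantile-type normalization between arrays, here an alternative (limma 3.58.1 on log2(FPKM + 1) and log2(FPKM + 0.1)). Other alternatives were DESeq2 1.42.0, its size factors in edgeR, library-size scaling, TMM without the members, scaling on the members, no filter, no marker genes, a replicate block, 1 fit of all libraries and leaving out each library. Fold changes are log2, Crtc1-/- minus Crtc1+/+ or eWAT minus liver. P-values measure the spread between 2 libraries a group, which also limits precision more than depth does. Scripts were tested on simulated data. Of changes of log2 1, 1.52% were recovered in liver, 1.03% in eWAT, 0% between tissues in Crtc1+/+ and 0% for the interaction. At log2 3 the values were 97.4%, 1.04%, 58.1% and 2.59%. A member that was not called may therefore still differ. Python 3.11.15 with pandas 2.3.3 and matplotlib 3.10.9 made summaries and plots.

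Members were named by rule: paralogs and their parents, members called, the 5 canonical members with the largest rise and fall in each comparison, the 5 highest and lowest in FPKM, members near the filter, and up to 4 genes called from each related list. Some genes that this rule would name are not reported here. Members and lists were chosen with earlier results of these data known. Untested for low counts were 6 members in liver (Rpl10l, Rpl39l, Rpl31-ps12, Rpl32l, Rpl34-ps1 and Rps27rt) and 2 in eWAT and in the joint fit (Rpl32l and Rps27rt). Shared sequence was counted as windows of 50 bases of protein-coding transcripts (GENCODE, GRCm38) found in another gene's transcripts. All 90 members matched the RefSeq gene table.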

Additional observations from a re-analysis of the deposited data

How the results depend on the processing

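Of 172 summary values under an alternative, 120 kept their size and 52 did not. Of 1470 values of single members, 1191 kept their direction and side of the threshold, 133 moved to the other side of the threshold by losing a call, 67 by gaining one and 79 turned sign. In liver DESeq2 and the fit without a filter each called 2 members in place of 0, leaving out 1 library gave 0 to 37, and scaling on the members gave a median of 0.0246. In eWAT the count of 1 became 7 with DESeq2, 3 with limma on log2(FPKM + 1), 2 without a filter, 2 without marker genes, 3 with all 8 libraries in 1 fit and 0 to 2 on leaving out 1 library. The median was -0.42 with library-size scaling and -0.36 with both limma fits. Between tissues in Crtc1+/+ the 15 calls became 83 with library-size scaling, 6 scaled on the members, 81 and 76 with limma at the pseudocounts 1 and 0.1, and 2 to 17 on leaving out 1 library, with medians of 1.84, 0.0285, 1.39 and 1.39 in the first 4. In Crtc1-/- the 4 calls became 18 with library-size scaling, 1 scaled on the members, 10 with DESeq2, 19 and 12 with limma, 1 without a filter and 0 to 4 on leaving out 1 library. The medians were 0.78 with library-size scaling, 0.0547 scaled on the members, and 0.62 and 0.65 with limma. For the interaction DESeq2 called 3, limma 6 and 2, leaving out 1 library 0 to 1, and the median scaled on the members was 0.0105. Shares of all genes called are not given for these alternatives, so the counts of calls describe the settings and not the members. The cause of these changes was not tested.

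With the replicate number as a block, 0 members were called in liver, 0 in eWAT (1 without it, and 0 of all genes with it), 14 and 4 between tissues and 0 for the interaction, and no count in the other comparisons moved by over 1.5 times. Deviations of same-numbered libraries correlated at 0.0626 between genotypes in liver and -0.0926 in eWAT. Between tissues the values were 0.271 within Crtc1+/+, -0.00458 within Crtc1-/-, 0.173 for Crtc1+/+ liver with Crtc1-/- eWAT and 0.165 for Crtc1-/- liver with Crtc1+/+ eWAT. Since not every value was above 0.1 and the labels tie no number to a mouse, the numbers were not taken to pair the samples.

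Members that turned sign are given with their values. In liver Rpl36al became -0.32 scaled on the members and -0.0720 and -0.0722 with limma, Rps27l -0.13 scaled on the members, Rpl41 0.00574 and Rplp0 0.0284 with library-size scaling. On leaving out 1 library Rpl3l ranged from -0.064 to 3.86, Rpl41 from -0.22 to 0.13 and Rplp0 from -0.19 to 0.13. In eWAT Rpl22l1 became -0.19 with library-size scaling, -0.31 and -0.32 with limma, -0.0116 with all 8 libraries and -0.24 to 0.34 on leaving out 1 library. Library-size scaling gave Rps15 -0.0819 and Rps19 -0.0511, limma gave Rps19 -0.0813 and -0.0815, and leaving out 1 library gave Rpl10l -4.55 to 0.23, Rps15 -0.0401 to 0.60 and Rps19 -0.0235 to 0.62. Between tissues in Crtc1+/+, library-size scaling gave Rpl27 1.31, Rpl36al 0.93, Rpl7a 1.117, Rpl8 1.26, Rps19bp1 0.62 and Rps2 0.86. Both limma fits gave Rpl27 0.95, Rpl36al 0.64, Rpl7a 0.67, Rpl8 0.79 and Rps2 0.39. Rps18 became -0.13 with DESeq2 and with its size factors, -0.41 scaled on the members and -0.34 to 0.27 on leaving out 1 library, which gave Rpl27 -0.30 to 0.13 and Rpl8 -0.37 to 0.0731. In Crtc1-/-, Rpl22l1 became 1.13 with library-size scaling, 0.37 scaled on the members, 0.28 and 0.29 with limma and -0.25 to 0.15 on leaving out 1 library. Rpl27 became 0.29 with library-size scaling and 0.16 and 0.17 with limma, Rpl28 0.00295 and 0.00299 with limma, and Rpl7l1 0.30 with library-size scaling. In the interaction, scaling on the members gave Rpl36al 0.14, Rpl41 0.63, Rpl8 0.57 and Rps4x 0.57, limma gave Rpl41 0.44 and 0.44, and library-size scaling gave Rplp2 -0.22. Leaving out 1 library gave Rpl41 -0.32 to 0.0833, Rpl8 -0.51 to 0.0521, Rplp2 -0.15 to 0.36, Rps27l -0.0252 to 0.80 and Rps4x -0.42 to 0.13.

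With 2 libraries a group, differences below the spread between replicates could not be detected, at depths of 16560085 counts or more. Where a library was left out, the lone sample of its group was taken to vary like the others.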
